A study of Homo sapiens with 20 samples.

Results

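The leukocyte integrin genes are ITGAL, ITGAM, ITGAX, ITGAD, ITGB2, ITGA4, ITGA5, ITGB1 and ITGB7. Their RUNX1 peaks were taken as all peaks of the deposited table that lay within 50 kb of the RefSeq span of 1 of these 9 genes in the human genome build GRCh38. The rule gave 51 of the 26642 peaks, and around these genes the peaks were taken by position alone. A peak between ITGAM and ITGAX lay in the windows of ITGAM, ITGAX and ITGAD and was counted once in all.

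Binding of the transcription factor RUNX1 was measured by chromatin immunoprecipitation with sequencing (ChIP-seq) in THP-1 cells, an established human monocytic leukemia cell line. All cells carried a shRNA cassette that was induced with doxycycline. In the knockdown libraries (n = 6) the cassette held a shRNA against PU.1, and in the control libraries (n = 6) a scramble shRNA. The labels place 3 control and 2 knockdown libraries in batch 1 and 3 control and 4 knockdown libraries in batch 2. The study's methods describe the batches as experimental rounds. The labels name no clone or second derivative within a genotype, so a difference between the control and the knockdown derivative that does not depend on PU.1 cannot be told apart from the knockdown. The study describes the libraries as cell line replicates, each with its own immunoprecipitation and library preparation. The labels do not say which libraries came from separate cultures, so the p-values measure the spread between these libraries, which may be technical. The assay reads DNA bound by RUNX1 and measured neither the PU.1 transcript nor integrin expression nor markers of the cell type.

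Integrins are heterodimers of an alpha and a beta chain that hold cells to other cells and to matrix. ITGB2 (CD18) is the beta chain shared by ITGAL (CD11a, in LFA-1), ITGAM (CD11b, in Mac-1), ITGAX (CD11c) and ITGAD (CD11d), which bind ICAMs and, for several of them, complement fragments. ITGA4 pairs with ITGB1 to bind VCAM1 and fibronectin or with ITGB7 to bind MADCAM1 in the gut, and ITGA5 pairs with ITGB1 as the fibronectin receptor. CD11b and CD18 are classical markers of maturing myeloid cells, and PU.1, an ETS factor encoded by SPI1, and RUNX1 are both known regulators of myeloid promoters.

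The promoter windows of ITGAM, ITGA4 and ITGB7 are shown because the first pair lay wholly inside a RUNX1 peak, the only 2 of the 6 integrin promoter windows to do so, and because the ITGB7 window lay in the gap between 2 peaks and held a PU.1-type core. The windows come from RefSeq (GRCh38.p14) and run from 250 bases before to 50 bases after the annotated start, 5′ to 3′ along the strand of the gene. The table held 6 windows for 5 of the 9 genes (ITGA4, ITGA5, ITGAM, ITGB7 and 2 for ITGB1). Capitals mark matches to 4 letter strings searched on both strands: the RUNX cores TGTGGT and TGCGGT, and the PU.1-type cores GAGGAAGT and AGGAAGTG, the last 2 of which can overlap each other.
ITGAM, chr16:31259725-31260024, plus strand: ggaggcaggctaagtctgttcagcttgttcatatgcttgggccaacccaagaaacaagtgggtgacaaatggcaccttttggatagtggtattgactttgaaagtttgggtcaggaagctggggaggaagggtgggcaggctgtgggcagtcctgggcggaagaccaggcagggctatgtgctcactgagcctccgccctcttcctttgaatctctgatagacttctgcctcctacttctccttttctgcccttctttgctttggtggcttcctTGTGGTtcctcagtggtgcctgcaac
ITGA4, chr2:181457136-181457435, plus strand: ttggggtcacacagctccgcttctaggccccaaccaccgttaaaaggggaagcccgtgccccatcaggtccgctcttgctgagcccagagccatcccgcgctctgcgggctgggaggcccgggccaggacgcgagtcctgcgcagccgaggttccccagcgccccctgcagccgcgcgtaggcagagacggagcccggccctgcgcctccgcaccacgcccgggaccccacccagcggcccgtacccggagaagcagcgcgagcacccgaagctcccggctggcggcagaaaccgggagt
ITGB7, chr12:53207202-53207501, minus strand: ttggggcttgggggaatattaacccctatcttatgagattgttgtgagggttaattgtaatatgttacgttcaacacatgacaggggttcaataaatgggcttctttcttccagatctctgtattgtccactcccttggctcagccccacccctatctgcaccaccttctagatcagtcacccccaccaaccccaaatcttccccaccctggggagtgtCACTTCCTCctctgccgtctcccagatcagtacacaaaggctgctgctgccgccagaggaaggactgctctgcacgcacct
The ITGAM window held 1 match, TGTGGT on the plus strand of the gene, which began at base 275 counted from the 5′ end and so lay past the start. The ITGA4 window held no match to any of the 4 strings. The ITGB7 window held AGGAAGTG and GAGGAAGT on the opposite strand, overlapping each other and beginning at bases 220 and 221. Of 35116 RefSeq promoter windows of this length, 13.1% held TGTGGT, 7.29% held TGCGGT, 2.59% held GAGGAAGT and 3.65% held AGGAAGTG. Of the other integrin windows, 1 of the ITGB1 windows held AGGAAGTG on the opposite strand at base 9, and the second ITGB1 window and the ITGA5 window held none of the strings. A match is a run of letters and not a measured site.

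Between 630247 and 1719840 reads per library fell in peaks, and the mean total was 1390760 in knockdown and 944485 in control, a ratio of 1.47. The integrin peaks held between 0.191% and 0.206% of these reads in every library. Values below are normalised read counts, which are counts divided by DESeq2 size factors, and fold changes are log2 of knockdown over control from the DESeq2 model with batch as a covariate, with their standard error (SE). The median SE over the integrin peaks was 0.20. All scalings used here rest on the reads in these peaks, so gains and losses are relative to the whole table. A change of RUNX1 binding shared by all peaks could not be seen and was not tested. Gained and lost peaks are those with a fold change over 1.1 and a p under 0.05 after Benjamini-Hochberg adjustment over all 26642 peaks, and all adjusted p-values below are of this kind.

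To determine whether lowering PU.1 changed RUNX1 binding at the integrin genes, the peaks were compared between knockdown and control. RUNX1 binding moved in both directions at these loci: 12 peaks were gained, 8 were lost and 31 were not called. The largest gains lay outside the genes, near ITGB2 (3.63-fold) and ITGB1 (3.56-fold), and the largest loss lay just outside ITGAX (4.17-fold lower). The 20 calls were 39.2% of the integrin peaks, against 42.0% of all peaks. The gained share was 23.5% against 21.3% of all peaks, and the lost share was 15.7% against 20.7%. The median log2 fold change was -0.14 over the integrin peaks and -0.02 over all peaks. As a group the integrin loci were near the share of the whole table. An integrin gene was the nearest protein-coding gene for 25 of the 51 peaks, of which 4 were gained and 5 were lost (36.0% called). A further 22 peaks lay outside the integrin genes and inside another protein-coding gene, with 6 gained and 2 lost (36.4% called). All 51 peaks had a mean of at least 10 normalised reads and an adjusted p.

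Most calls lay away from the ends of genes, a description for which no test was made. Of the 14 integrin-window peaks within 1 kb of an end of any protein-coding gene, 0 were gained and 1 was lost in DESeq2. The lost peak lay near RARG, the gene of the retinoic acid receptor gamma. No gain was found among the 14 by edgeR's quasi-likelihood test or at an unadjusted p under 0.05 (0 by each). Of the 37 peaks farther away, 12 were gained and 7 were lost. The same split over all peaks gave 402 gained and 1233 lost of 6494 near a gene end, and 5264 gained and 4286 lost of 20148 farther away. Inside the 9 genes lay 13 of the 51 peaks, of which 2 were gained (both in ITGAL) and 1 was lost (in ITGB7). These calls were 23.1% of the 13, against 44.7% of the 38 integrin peaks outside the genes and 42.0% of all peaks. The share over all peaks inside genes was not computed. The plot of fold changes along the loci shows each peak at its distance from its gene.

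**Figure D1:**
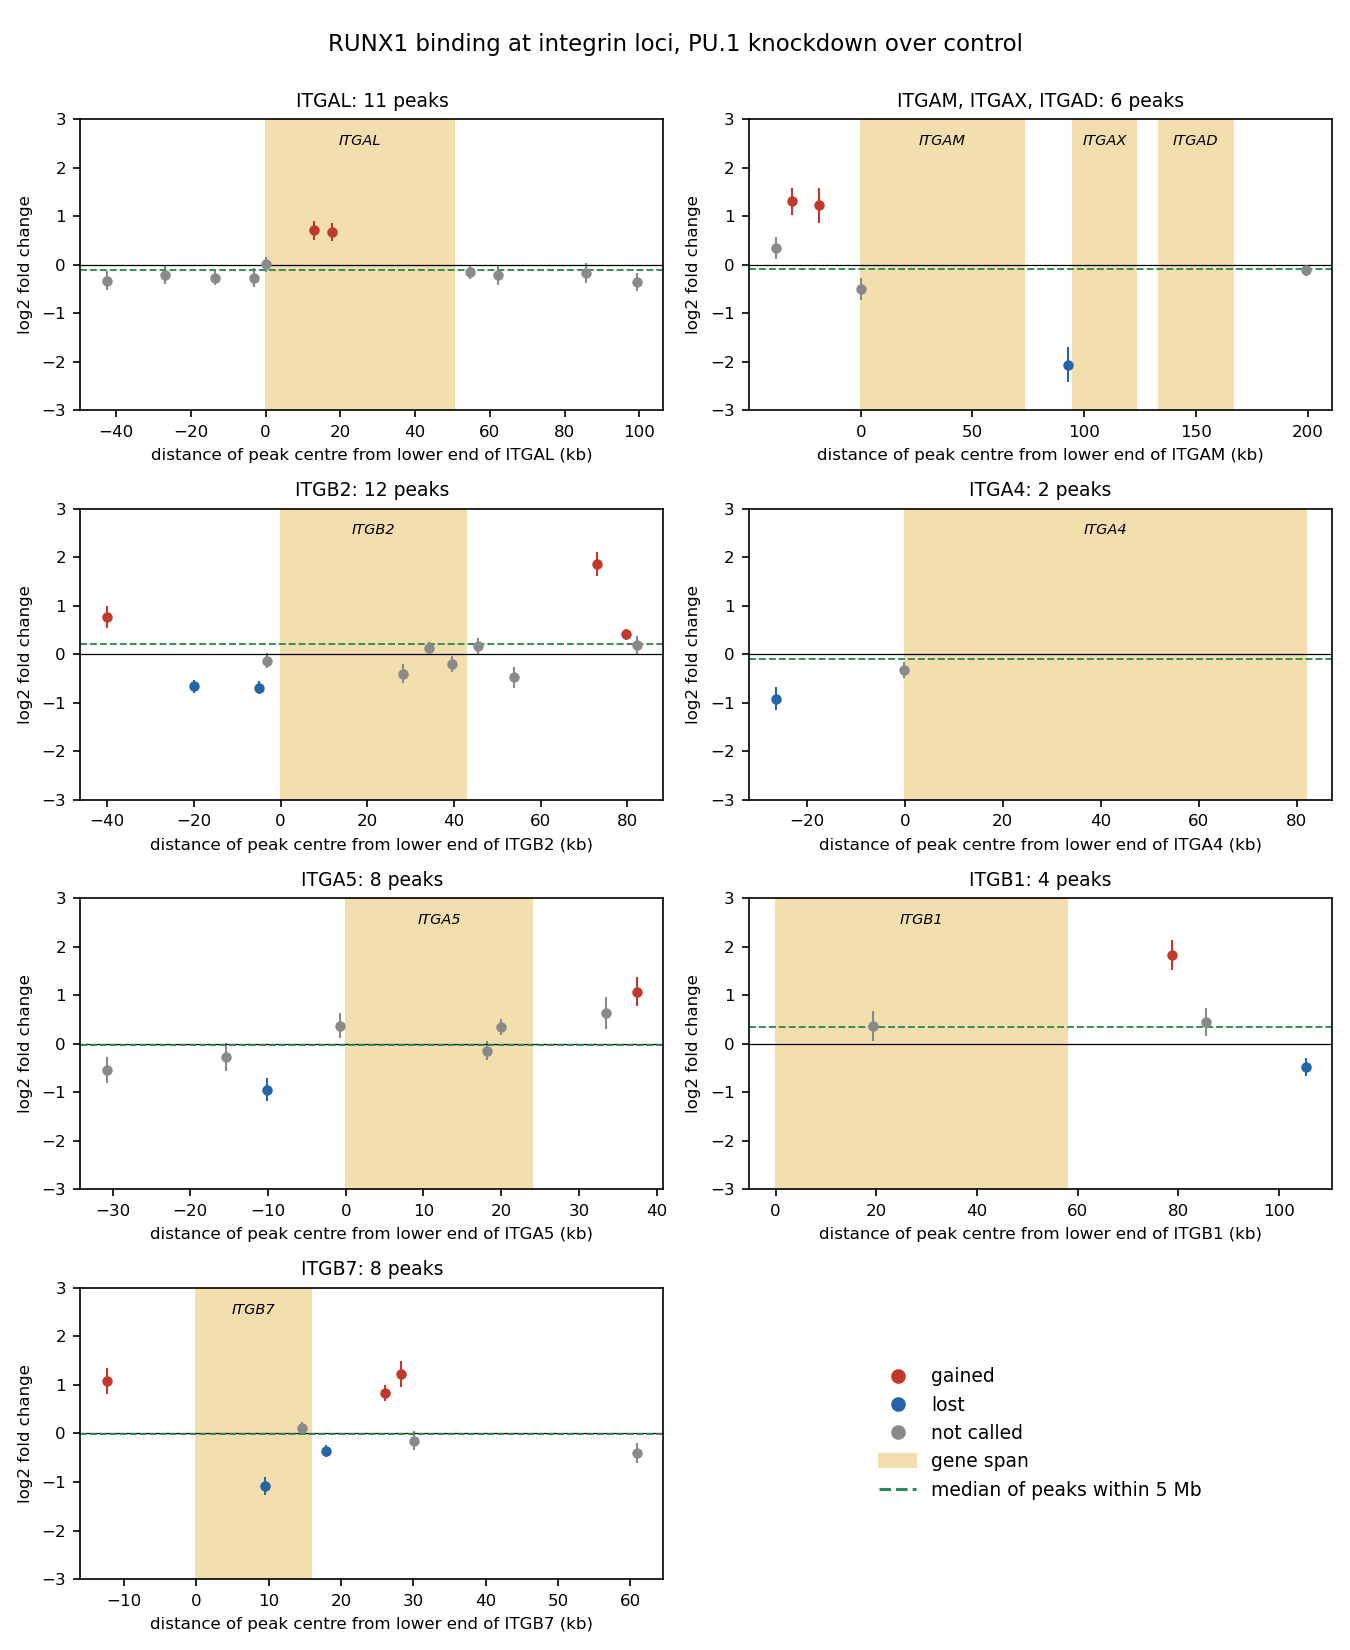
Log2 fold change (knockdown over control, DESeq2, error bars ± SE) of the 51 peaks against the distance of the peak centre from the lower-coordinate end of the first gene named, in kb, with gene spans shaded and the median of all peaks within 5 Mb as a dashed line. Gained (12, red) and lost (8, blue) peaks sit mostly outside the gene spans, as do 38 of the 51 peaks. The dashed line is above 0 at ITGB1 (0.35) and ITGB2 (0.21).

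ITGAL (chr16:30472742-30523185) encodes the alpha chain of LFA-1, which holds leukocytes to ICAM1. Of its 11 peaks, 2 were gained and 0 were lost, by DESeq2 and by edgeR, and 1 was lower at an unadjusted p under 0.05. Both gained peaks lay inside the gene. The first, at chr16:30490087-30491173, had 28.4, 36.0 and 50.4 normalised reads in control (lowest, median and highest) and 44.8, 59.8 and 79.6 in knockdown. The groups overlapped at their edges, but within each batch every knockdown library was above every control library. Its log2 fold change was 0.67 ± 0.18 (SE, adjusted p = 0.000833).

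The second gained peak in ITGAL, at chr16:30484978-30486477, ranged from 20.5 to 41.6 in control and from 38.3 to 51.3 in knockdown (log2 fold change 0.71 ± 0.19, adjusted p = 0.00123). The peak over the lower end of ITGAL, at chr16:30472282-30473539, ranged from 50.4 to 71.1 in control and from 49.4 to 66.5 in knockdown, with a log2 fold change of 0.00 ± 0.15 (adjusted p = 0.988). The strongest peak of the window, at chr16:30458423-30459726 between SEPHS2 and ITGAL, had 50.3, 84.2 and 97.7 in control and 58.6, 64.6 and 71.8 in knockdown, and was not called (-0.28 ± 0.14, adjusted p = 0.0939). It was called lost without control replicate 4 (adjusted p = 0.0325) and without the batch term (0.0447). The 4 peaks in the zinc finger genes ZNF768, ZNF747, ZNF764 and ZNF688 on the far side of ITGAL were not called, with log2 fold changes from -0.35 to -0.15.

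ITGAM (chr16:31259975-31332877) encodes CD11b, the alpha chain of the complement receptor Mac-1. Its window held 5 peaks, of which 2 were gained, 1 was lost and 2 were not called. The gained peak with the smaller adjusted p, at chr16:31228761-31229562 within TRIM72, a gene known from membrane repair in muscle, had 6.94, 11.5 and 18.8 normalised reads in control and 20.2, 28.4 and 38.2 in knockdown. No knockdown library fell within the control range. The log2 fold change was 1.31 ± 0.28 (adjusted p = 1.72e-05), and it was called in batch 1 alone (1.69) and in batch 2 alone (0.99). The other gained peak lay 18375 bp below the ITGAM start (1.23 ± 0.36, adjusted p = 0.00252), with 3.47 to 12.9 in control and 9.91 to 24.7 in knockdown.

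The peak over the ITGAM start, chr16:31259632-31260325, is the one that holds the promoter window printed above with its TGTGGT. It was also the strongest peak of the window, with 20.5, 33.2 and 36.9 normalised reads in control and 15.4, 19.8 and 32.9 in knockdown. The 4 knockdown libraries of batch 2 (15.4 to 19.8) were below all control libraries, whereas the 2 of batch 1 (25.7 and 32.9) were within the control range. The pooled fold change was not called (-0.50 ± 0.23, adjusted p = 0.0672), but it was called lost by edgeR (adjusted p = 0.0436), without the batch term (0.0473), without control replicate 2 (0.0191) and without knockdown replicate 1 (0.0301). Within batches the log2 fold change was 0.04 in batch 1 (adjusted p = 0.97) and -0.92 in batch 2 (adjusted p = 0.0182).

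The peak between ITGAM and ITGAX, chr16:31352307-31352900, lay 2276 bp from the lower end of ITGAX (chr16:31355176-31382999), which encodes CD11c, a marker of dendritic cells and some macrophages. It was the only peak in the ITGAX window and had the largest loss of the 51. It had 11.6, 19.3 and 23.4 normalised reads in control and 3.29, 4.26 and 5.94 in knockdown, so the groups did not overlap. The counts behind these values were small, at 11 to 20 reads per control library and 5 to 6 per knockdown library. The log2 fold change was -2.06 ± 0.37 (adjusted p = 2.81e-07), with -2.24 in batch 1 and -1.94 in batch 2. It remained called in all 23 alternatives that could be run on it.

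ITGAD (chr16:31393335-31426505) encodes CD11d and had no peak inside the gene. Its window shared the lost peak next to ITGAX and held 1 other, at chr16:31457831-31460186 over the start of ARMC5. That peak had 116, 120 and 157 normalised reads in control and 91.3, 120 and 130 in knockdown, which overlapped, and was not called (-0.12 ± 0.12, adjusted p = 0.44).

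ITGB2 (chr21:44885953-44928815) encodes CD18, the beta chain of all 4 receptors above. It had the most peaks, 12, of which 3 were gained, 2 were lost and 7 were not called. The calls lay on both sides of the gene, and 0 of the 3 peaks inside it were called by DESeq2 or by edgeR (1 at an unadjusted p under 0.05). The gained peak at chr21:44958354-44959342, within the neighboring gene SLX9, had the smallest adjusted p of the 51. It had 6.50, 13.4 and 24.3 normalised reads in control and 37.6, 49.0 and 66.2 in knockdown, with no overlap. Its log2 fold change was 1.86 ± 0.25 (adjusted p = 4.56e-12), and it was called in batch 1 (2.24) and in batch 2 (1.58).

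On the other side of ITGB2, 2 peaks were lost. The peak at chr21:44880426-44881764, which lay 4189 bp from the gene, had 83.2, 96.1 and 111 normalised reads in control and 56.6, 60.3 and 66.2 in knockdown. All knockdown libraries were below all control libraries, and the log2 fold change was -0.69 ± 0.13 (adjusted p = 1.33e-06). The peak at chr21:44865275-44866854, within PTTG1IP, ranged from 75.8 to 128 in control and from 55.0 to 69.4 in knockdown (-0.66 ± 0.14, adjusted p = 7.62e-06). Another call on this side was in the opposite direction, a gained peak 39667 bp from ITGB2 (0.77 ± 0.22, adjusted p = 0.00178), with 17.9 to 26.5 in control and 22.8 to 47.5 in knockdown. Its nearest gene was PTTG1IP, at 3312 bp. The log2 fold change of this peak was 0.30 in batch 1 (adjusted p = 0.731) and 1.16 in batch 2 (adjusted p = 0.00154).

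The strongest peak of the ITGB2 window, chr21:44965074-44966124 within SLX9, was gained with 84.5, 100.1 and 118 normalised reads in control and 126, 131 and 156 in knockdown, with no overlap. Its log2 fold change was 0.41 ± 0.11 (adjusted p = 0.00147). The 114 peaks within 5 Mb of ITGB2 had a median log2 fold change of 0.21. After this median was subtracted, the peak had a log2 fold change of 0.20 and was no longer called (adjusted p = 0.152), and 3 peaks that had not been called became lost, 2 inside ITGB2 and 1 lying 10109 bp from it. The peak nearest an end of ITGB2, chr21:44930875-44931896, ranged from 36.9 to 65.9 in control and from 36.3 to 71.3 in knockdown and was not called (0.16 ± 0.17, adjusted p = 0.481). Summed over the 12 peaks, the ITGB2 window had 667 to 744 normalised reads in control and 679 to 735 in knockdown, so gains and losses left the sums of the groups overlapping.

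**Figure D2:**
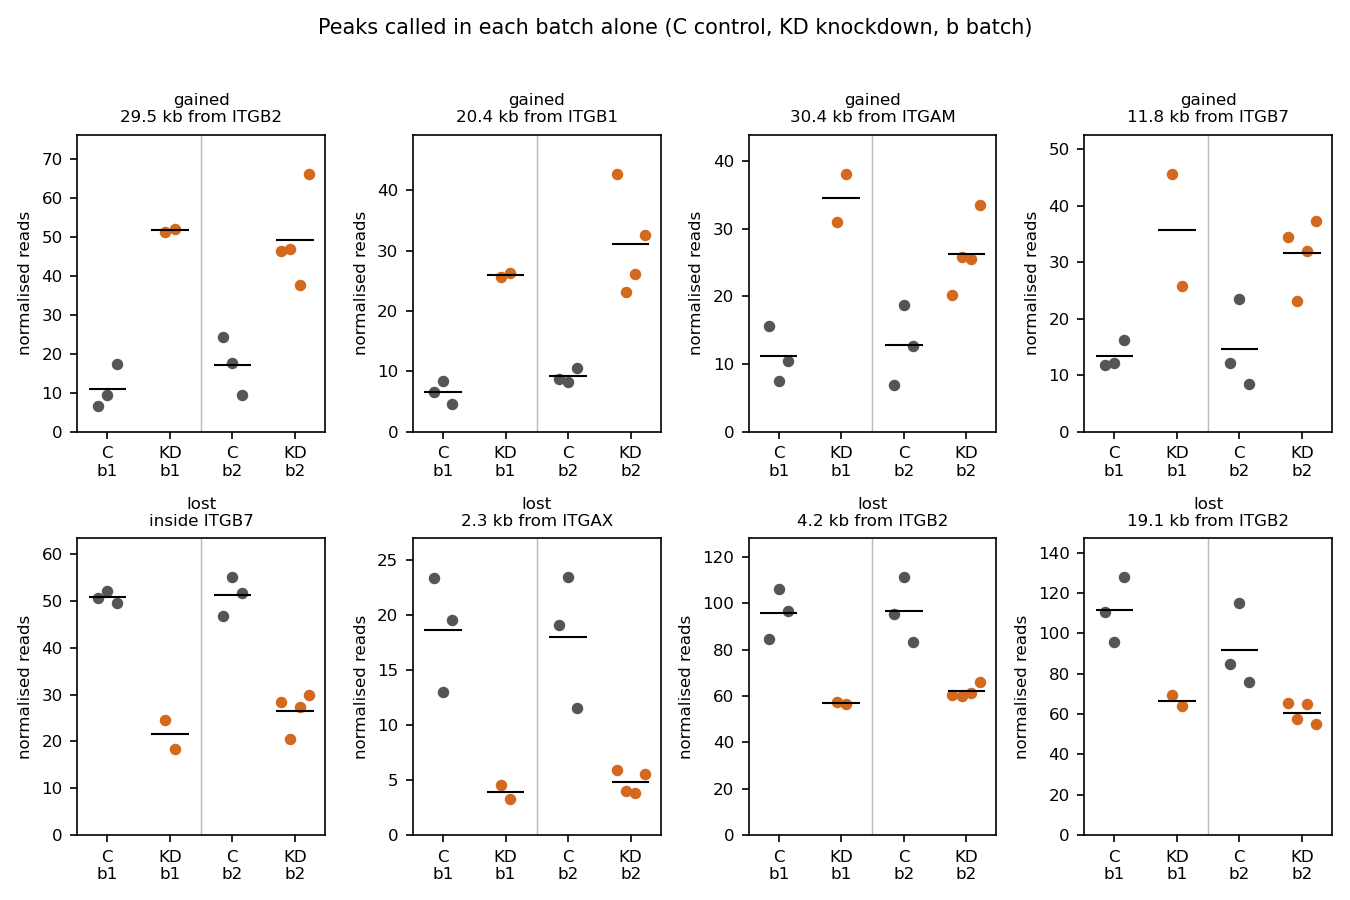
Normalised read counts of the 8 peaks that were called in each batch alone, 4 gained (upper row) and 4 lost (lower row), with 1 point per library, a bar at the mean, and control (C) and knockdown (KD) libraries of batch 1 (b1) and batch 2 (b2) apart. In the peak 29.5 kb from ITGB2 all knockdown libraries (37.6 to 66.2) sit above all control libraries (6.50 to 24.3), and in the peak 2.3 kb from ITGAX all sit below (3.29 to 5.94 against 11.6 to 23.4).

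ITGA4 (chr2:181457205-181538940) encodes CD49d, the alpha chain of the VCAM1 receptor VLA-4. It had 2 peaks, and both had lower mean binding in knockdown. The peak at chr2:181430347-181431361, which lay 25844 bp outside the gene, was lost: it had 22.1, 30.8 and 43.7 normalised reads in control and 11.9, 14.2 and 23.0 in knockdown. The ranges overlapped slightly, and the log2 fold change was -0.91 ± 0.24 (adjusted p = 0.000691), with -0.61 in batch 1 (adjusted p = 0.412) and -1.16 in batch 2 (adjusted p = 0.00636).

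The peak over the ITGA4 start, chr2:181456458-181457709, holds the ITGA4 promoter window printed above, which had none of the 4 letter strings. It had 58.8, 62.5 and 78.0 normalised reads in control and 32.1, 44.5 and 72.4 in knockdown. The knockdown libraries fell into their batches: those of batch 1 had 71.2 and 72.4, within the control range, and those of batch 2 had 32.1 to 47.5, below every control library. The pooled fold change was not called (-0.32 ± 0.17, adjusted p = 0.114). Within batches it was 0.16 in batch 1 (adjusted p = 0.798) and -0.72 in batch 2 (adjusted p = 0.00991).

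**Figure D3:**
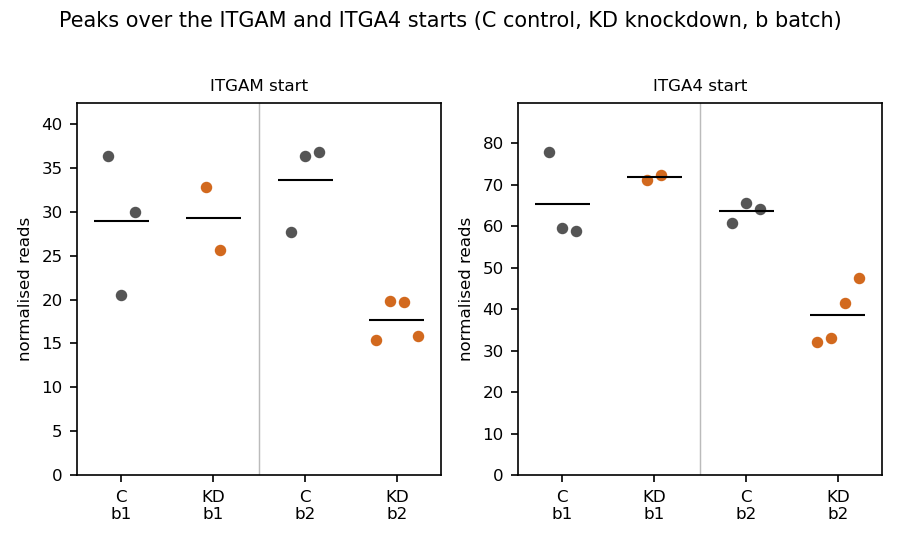
Normalised read counts of the peaks over the starts of ITGAM and ITGA4, with 1 point per library, a bar at the mean, and control (C) and knockdown (KD) libraries of batch 1 (b1) and batch 2 (b2) apart. In batch 2 the knockdown libraries (15.4 to 19.8 at ITGAM, 32.1 to 47.5 at ITGA4) sit below the control libraries, and in batch 1 the ranges overlap.

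ITGA5 (chr12:54395261-54419266) encodes the alpha chain of the fibronectin receptor. Of its 8 peaks, 1 was gained, 1 was lost and 6 were not called. The lost peak, chr12:54384434-54385780 within ZNF385A, had 29.5, 45.3 and 62.1 normalised reads in control and 10.7, 24.0 and 30.9 in knockdown (-0.95 ± 0.23, adjusted p = 0.000255). The 4 lowest libraries were the knockdown libraries of batch 2 (10.7 to 25.8), and the call held in batch 2 alone (-1.34) but not in batch 1 alone (-0.42, adjusted p = 0.523). The gained peak, chr12:54432364-54433101, lay 13098 bp beyond the start of ITGA5 and had 3.16, 13.1 and 18.6 in control and 15.3, 24.7 and 29.0 in knockdown (1.08 ± 0.30, adjusted p = 0.0017). Neither batch alone called it (adjusted p = 0.178 in batch 1 and 0.0626 in batch 2), though its direction was the same in both.

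Inside ITGA5, the peak nearest its start was also the strongest of the window, chr12:54414658-54415729. It had 27.9, 51.4 and 69.1 normalised reads in control and 60.6, 63.7 and 75.2 in knockdown. The lowest control library was below all the others, and the ranges overlapped. It was not called (0.35 ± 0.17, adjusted p = 0.0818), but was called gained by edgeR (adjusted p = 0.0358), with at least 10 reads asked of every library (0.0413) and without control replicate 3 (0.0182).

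ITGB1 (chr10:32900318-32958230) encodes CD29, the beta chain that pairs with ITGA4 and ITGA5. It had 4 peaks, of which 1 was gained and 1 was lost, both outside the gene. The gained peak, chr10:32978643-32979495, lay 20413 bp beyond the annotated start at base 32958230 and had 4.61, 8.29 and 10.5 normalised reads in control and 23.1, 26.2 and 42.8 in knockdown. No library of one group lay within the range of the other. Its log2 fold change was 1.83 ± 0.31 (adjusted p = 3.4e-08), and it was called in batch 1 (adjusted p = 0.0128) and in batch 2 (1.73, adjusted p = 0.000472). The counts were 4 to 10 reads per control library and 28 to 41 per knockdown library.

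The 96 peaks within 5 Mb of ITGB1 had a median log2 fold change of 0.35, the highest of the loci. Against this median the gained peak kept its call (1.48, adjusted p = 1.07e-05), and so did the lost peak of the window (-0.83, adjusted p = 6.45e-05). The lost peak, chr10:33004905-33006296, was the strongest of the ITGB1 window, with 27.7, 46.3 and 57.9 normalised reads in control and 30.4, 32.4 and 35.6 in knockdown (-0.48 ± 0.19, adjusted p = 0.0285). The knockdown libraries lay inside the control range, and 10 of 24 alternatives did not call it, among them the fit with a replicate block in place of batch (adjusted p = 0.107) and the fits without control replicate 2 (0.0871), control replicate 5 (0.0722), control replicate 6 (0.151), knockdown replicate 4 (0.0678) and knockdown replicate 5 (0.0601). The peak nearest an ITGB1 start, inside the gene, ranged from 7.03 to 17.7 in control and from 9.88 to 19.6 in knockdown and was not called (0.36 ± 0.31, adjusted p = 0.36).

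ITGB7 (chr12:53191323-53207251) encodes the beta chain of the gut-homing receptor with ITGA4. Of its 8 peaks, 3 were gained and 2 were lost. The lost peak inside the gene, chr12:53200194-53201591, had 46.8, 51.1 and 55.1 normalised reads in control and 18.4, 26.0 and 29.8 in knockdown. The control libraries were close together and all knockdown libraries were below them. The log2 fold change was -1.09 ± 0.18 (adjusted p = 5.22e-08), with -1.24 in batch 1 and -0.97 in batch 2.

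The ITGB7 promoter window with its overlapping AGGAAGTG and GAGGAAGT lay between the peak at chr12:53205517-53206363, inside the gene, and the peak at chr12:53208720-53209924, on the side of RARG. The former was the peak nearest the start, had 78.6 to 102 normalised reads in control and 88.2 to 110 in knockdown, and was not called (0.11 ± 0.12, adjusted p = 0.51). The latter was the strongest of the window, with 86.7, 110 and 121 in control and 65.8, 86.6 and 95.6 in knockdown, and was lost by a small margin (-0.36 ± 0.12, adjusted p = 0.0109). It was not called in 7 of 24 alternatives, among them the replicate block (adjusted p = 0.0675), the fit without knockdown replicate 1 (0.0752) and at least 10 reads asked of every library (0.0531). Neither batch alone called it (adjusted p = 0.204 in batch 1 and 0.27 in batch 2).

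The 3 gained peaks of the ITGB7 window lay in neighboring genes. The one with the smallest adjusted p, chr12:53216906-53217901 within RARG, had 29.9, 36.4 and 49.2 normalised reads in control and 51.1, 72.9 and 91.2 in knockdown, with no overlap (0.84 ± 0.16, adjusted p = 2.34e-06). A second peak within RARG, chr12:53219092-53220093, rose from a control range of 8.43 to 23.4 to a knockdown range of 23.1 to 45.7 (1.23 ± 0.27, adjusted p = 3.09e-05). The third lay within CSAD, an enzyme of taurine synthesis (1.09 ± 0.27, adjusted p = 0.000327).

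To determine whether the changes held in each experimental round, the test was repeated within each batch. All 20 pooled calls had the same sign in both batches, as did 99.9% of the 11185 pooled calls over all peaks, since the pooled fit rests on the same batches. Batch 1 alone called 8 integrin peaks, 4 gained and 4 lost, against 12% of all peaks called, and batch 2 alone called 17, 8 gained and 9 lost, against 25.8% of all peaks. By edgeR, batch 1 alone called 15, against 27.3% of all peaks. Batch 1 rests on 2 knockdown libraries. Without knockdown replicate 1 or 2, DESeq2 called 0 integrin peaks (6 and 5 at an unadjusted p under 0.05), against 1.18% and 0.946% of all peaks. It called 1 without control replicate 2 or 3, against 4.28% and 4.18% of all peaks, and 5 without control replicate 1, against 7.97%. The 8 peaks called in batch 1 were all among the 17 of batch 2. They were the gained peaks near ITGB2 (within SLX9), ITGB1, ITGAM (within TRIM72) and ITGB7 (the second peak within RARG), and the lost peaks inside ITGB7, next to ITGAX, near ITGB2 and within PTTG1IP. Neither batch alone called 5 of the 20 pooled calls. Of the gains, these were the second in ITGAL, the peak 18375 bp below the ITGAM start, the strongest ITGB2 peak and the ITGA5 peak. Of the losses, it was the strongest ITGB7 peak. The knockdown libraries lay beyond all control libraries of their own batch in both batches at 13 integrin peaks, 7 above and 6 below, against 28.3% of all peaks.

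The fold change differed between batches at an unadjusted interaction p under 0.05 for 2 of the 51 integrin peaks, against 2.51% of all peaks. They were the peaks over the starts of ITGA4 (difference -0.87 ± 0.32, SE) and of ITGAM (difference -0.95 ± 0.46, SE). At both, the log2 fold change of batch 2 was lower than that of batch 1. After adjustment 0 of the 51 passed in DESeq2 (adjusted p = 0.9999 for both), and the interaction was not tested by another tool. Both peaks were called lost in batch 2 alone and had log2 fold changes near 0 in batch 1. The plot of the batches shows both off the diagonal.

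**Figure D4:**
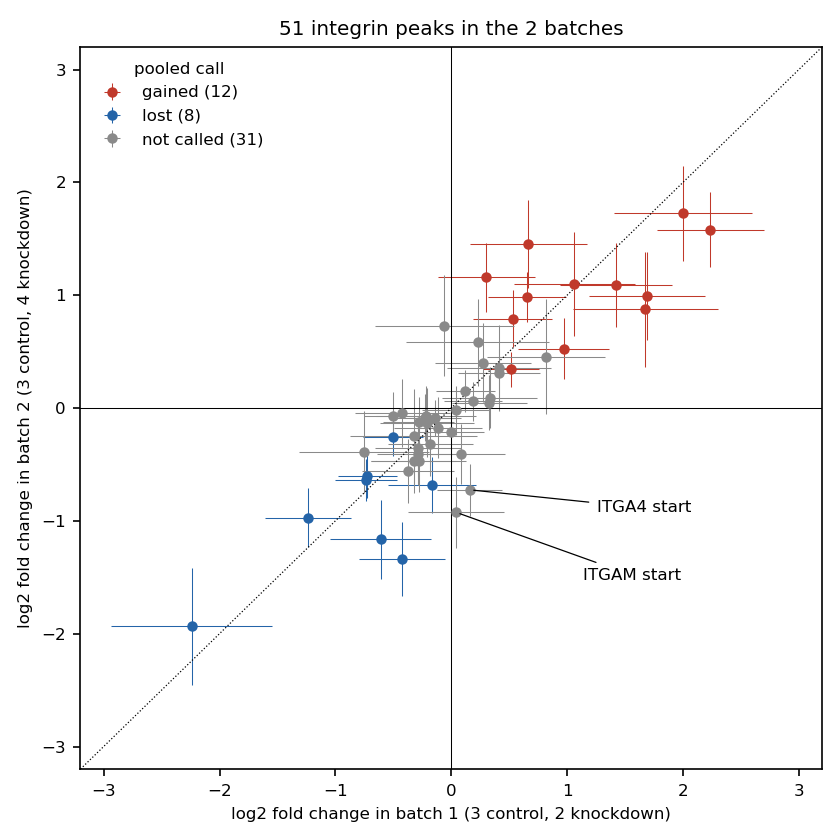
Log2 fold change of the 51 peaks in batch 1 (x axis, 3 control and 2 knockdown libraries) and in batch 2 (y axis, 3 control and 4 knockdown libraries), with bars of ± SE, colored by the pooled call. The 12 gained and 8 lost peaks lie in the same sign quadrant in both batches, and the ITGA4 and ITGAM start peaks lie near 0 in batch 1 and at -0.72 and -0.92 in batch 2.

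The genes that act with these integrins were taken from a list of 4 classes, and 252 further peaks lay within 50 kb of them, with 60 gained and 57 lost (46.4% called, against 42.0% of all peaks). Over all peaks, 21.3% were gained and 20.7% were lost. Around the ligands, 6 of 26 peaks were gained and 3 were lost. F11R, which encodes the junctional ligand JAM-A of LFA-1, had a gained peak (0.83 ± 0.22, adjusted p = 0.000749) and a lost peak (-0.59 ± 0.15, adjusted p = 0.000443) in its window. The window of the ITGB7 ligand MADCAM1 held 2 gained peaks and 1 lost peak. The gain with the smaller adjusted p lay 49593 bp from the gene (1.57 ± 0.45, adjusted p = 0.00169), and the loss lay 385 bp from it (-0.31 ± 0.11, adjusted p = 0.012). Around the genes of integrin activation and adaptors, 27 of 102 were gained and 20 were lost. The gain with the smallest adjusted p in this class lay in the window of the parvin genes PARVG and PARVB, which link integrins to actin. It had 27.7, 37.7 and 65.1 normalised reads in control and 119, 126 and 153 in knockdown (1.60 ± 0.16, adjusted p = 5.07e-22). In the PARVG window 8 of 9 peaks were higher in knockdown, with a median log2 fold change of 0.87. Unlike the integrin peaks, the pathway peaks were not set against the median of the peaks around them, so a shift of the wider region was not tested.

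Losses in the adaptor class included a peak near APBB1IP, which encodes RIAM, the Rap1 effector that recruits talin (-1.79 ± 0.35, adjusted p = 2.55e-06), and a peak within LIMS1, which encodes the adaptor PINCH1 (-1.23 ± 0.22, adjusted p = 5.08e-07). Each of these genes had 2 gained and 2 lost peaks in its window. The kinases and effectors downstream of integrins were the class with more losses than gains: 24 of 78 peaks were lost and 14 were gained, with a median log2 fold change of -0.21. Over all peaks, 20.7% were lost and 21.3% were gained, with a median of -0.02. In this class LYN, PTK2 and PTK2B, with 8, 5 and 16 peaks in their windows, lie on chromosome 8. Both named losses of this class lay inside a gene, 1 in the Src family kinase gene LYN (-1.65 ± 0.26, adjusted p = 6.4e-09) and 1 in the PI3-kinase delta gene PIK3CD (-1.34 ± 0.20, adjusted p = 3.32e-10). The LYN window held 4 lost peaks, and 7 of its 8 peaks were lower in knockdown. That of PIK3CD held 3 lost and 1 gained. At the lost peak in PIK3CD, control libraries had 43.7, 47.6 and 50.6 and knockdown libraries 14.3, 18.2 and 23.7, with no overlap.

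Around the other integrin subunits, 13 of 46 peaks were gained and 10 were lost. The gain with the smallest adjusted p lay inside ITGB3, which encodes the beta chain of the platelet fibrinogen receptor, where control libraries had 42.6, 51.1 and 65.7 normalised reads and knockdown libraries 136, 148 and 184 (1.58 ± 0.13, adjusted p = 2.45e-30). Its platelet partner ITGA2B had a lost peak in its window (-0.93 ± 0.15, adjusted p = 1.68e-08). The loss with the smallest adjusted p lay in the window of the laminin receptor gene ITGA7 (-1.89 ± 0.24, adjusted p = 9.34e-14). The plot of shares sets the classes side by side, and no test between classes was made.

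**Figure D5:**
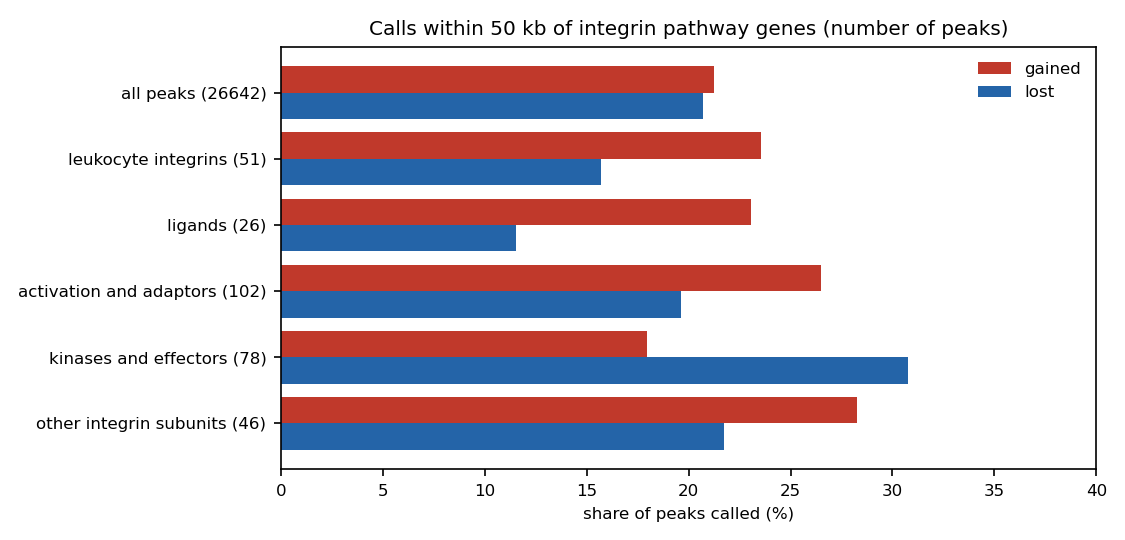
Share of peaks called gained (red) and lost (blue) in percent, for all 26642 peaks, the 51 leukocyte integrin peaks and the peaks within 50 kb of 4 classes of integrin pathway genes, with the number of peaks in parentheses. Gained peaks outnumber lost peaks in the windows of ligands (6 against 3), activation and adaptors (27 against 20) and other subunits (13 against 10), and the reverse is seen for kinases and effectors (14 against 24). Over all peaks gained peaks also outnumber lost peaks (5666 against 5519).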

How the data were processed

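The authors deposited raw counts of reads per RUNX1 peak and library, with no normalization, and the width of each peak in bp, an other value that was not tested. Per the study's methods, reads were aligned with bowtie2, duplicates were removed, peaks were called per condition and batch with macs2, filtered for reproducibility and merged, and reads were counted with featureCounts (versions not given in the sources used here). The peaks were thus called on the libraries that are compared. The methods name GRCm38, and the processing notes also GRCh38. The build was settled as GRCh38, since 24.4% of peaks lay within 1 kb of a gene end of GRCh38.p14, against 5.48% to 7.58% after shifts.

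The 12 RUNX1 libraries were tested with DESeq2 1.42.0 (R 4.3.3), with batch as a covariate. Results were recomputed with the quasi-likelihood test of edgeR 4.0.16, other scaling, filters, thresholds and windows, and leaving out each library. On simulated counts for 26642 peaks in this comparison, DESeq2 recovered 141 of 200 changed peaks (log2 fold change of 1) with 7 false calls. By edgeR, 145 were recovered with 18 false calls. The simulated counts held few changed peaks and no batch effect, whereas 42.0% of the real peaks were called. The recovery therefore may not carry over to these data. No duplicate libraries were found, with a chi-square per degree of freedom of 1.29 to 2.24 within groups. The replicate numbers do not pair the libraries. The gene table gives no exons. The member genes and pathway lists were chosen with earlier results of these data known. Named for each gene were the peaks nearest its start (or an end), the strongest, and the gained and lost calls with the smallest adjusted p; other calls were added after their values were seen. For each pathway class, peaks were taken from the 2 smallest adjusted p in each direction. The 8 IgG libraries were not analysed here.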

Additional observations from a re-analysis of the deposited data

Results flagged for a closer look

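At the peak over the ITGA4 start, control replicate 1 had 78.0 normalised reads (60 reads as counted), whereas the other 5 control libraries had 58.8 to 65.7. Its gap to the nearest library was 0.641 of the range of the group, above the limit of Dixon's test for 6 values. Of 46 groups of libraries searched, chance alone gives about 1 in 20, or 2.3. The peak was not called with or without this library.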

How the results depend on the processing

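Over 545 alternatives of the 23 named peaks, 488 kept the direction and the side of the threshold, 32 kept the direction but lost the call and 11 kept it and gained a call. In the other 14 the sign changed without a call in either fit: 10 at the peak over the lower end of ITGAL, whose log2 fold change was 0.00, 1 after centring at the peak nearest an end of ITGB2 (-0.05), and in batch 1 alone the peaks nearest the starts of ITGAM (0.04), ITGA4 (0.16) and ITGB1 (-0.06). DESeq2 called 20 integrin peaks, and leaving out each library in turn gave 19 to 22 calls (12 to 13 gained, 7 to 10 lost) and a median log2 fold change of -0.17 to -0.10. The calls were 24 with edgeR (47.1% of all peaks called), 24 without the batch term (43.8%), 22 after centring on the local median (40.9%) and 18 at an adjusted p under 0.01 (31.6%). When at least 10 reads were asked of every library, 37 integrin peaks were tested. Of these, 10 were called (6 gained and 4 lost), against 32.2% of all peaks that passed. The strongest ITGB1 and ITGB7 peaks passed but lost their call (adjusted p = 0.0800 and 0.0531). The strongest ITGA5 peak gained one (0.0413). Calls were fewer by construction when a fold change over 2 was asked (9, 7 and 2, 17.1% of all peaks), within 10 kb of the genes (8, 3 and 5) and for peaks overlapping the genes (3, 2 and 1, median 0.0037). These windows kept the main thresholds, by which 42.0% of all peaks were called. Within 10 kb the balance was 3 gained and 5 lost, against 12 and 8 within 50 kb, which the narrower window does not force. This difference was not tested. Batch 1 alone, with 5 libraries, called 8 (4 gained and 4 lost, median -0.0054) and 15 by edgeR. Leaving out each library of batch 1 gave 0 to 5 calls, where a lone knockdown library is assumed to vary like the controls, and in batch 2, which called 17, it gave 11 to 16, with 11 without control replicate 5 or 6 (16.3% and 16.4% of all peaks, against 25.8%). The cause of the difference between the tools was not tested.

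A replicate block in place of batch gave 18 calls (35.6% of all peaks), losing the ITGB1 peak 46675 bp from the gene and the ITGB7 peak 1469 bp from the gene, and changed no other call. Replicate numbers did not pair the libraries: the correlations of same-numbered libraries were -0.059 to 0.172, and 2 of 6 control libraries correlated best with their own number. With 630247 to 1719840 reads in peaks, 14 of the 51 integrin peaks held fewer than 10 reads in some library, which limits what small differences can be called.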
